A study of Caenorhabditis elegans with 2 samples.

Results

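The small nuclear RNA (snRNA) genes of Caenorhabditis elegans were examined for regions bound by the paired-domain protein NPAX-4 in late embryos. Members were the genes that Ensembl annotates with the biotype snRNA on the WBcel235 genome, without the spliced-leader genes, whose symbols begin with sls-. This gave 99 of 46926 annotated genes, and left out 30 of the 129 annotated snRNA genes. Binding was measured by chromatin immunoprecipitation and sequencing (ChIP-seq) with an antibody against GFP, per the sample description. The antibody label of the samples reads npax-4 instead, and the description is followed here. The animals were hermaphrodites of strain OP493, genotype unc-119(tm4063) III; wgIs493, which carries NPAX-4 fused at its C terminus to GFP and FLAG. Both samples had this genotype, so all values came from 1 transgenic line that also carries the unc-119 mutation. The 2 biological replicates were whole embryos collected 4 h after synchronisation by egg bleaching, and chromatin was sheared by sonication. No other condition was present, and the control library was not analysed here.

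Spliceosomal snRNAs are short structured RNAs that form, with their proteins, the particles that find splice sites and remove introns from messenger RNA precursors. The U6 RNA pairs with the 5′ splice site in the active spliceosome and is made by RNA polymerase III, whereas the U1, U2, U4 and U5 RNAs are made by RNA polymerase II. Metazoan snRNA genes are read from a proximal sequence element bound by the SNAPc complex, and the polymerase III genes carry a TATA box downstream of that element. The SmY RNAs of nematodes, named smy here, are small Sm-site RNAs associated with spliced-leader trans-splicing.

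No snRNA type was annotated for any member, so members were grouped by gene sequence. Each was joined to a family at 70% identity or more with at least 1 of its members. Pairs within a family can thus fall lower, to 55.9% in the 105-base and 68.5% in the 102-base family. Families were named by their most frequent length. The families held 24 genes of the 102-base family, 19 of the 187-base, 13 of the 165-base, 12 of the 122-base, 7 of the 105-base and 5 of the 144-base family. A further 10 members were smy genes by symbol, and 9 belonged to no family. The 4 gene sequences printed next show what some of the families look like. Each is that of the member with the strongest summit in its family, read 5′ to 3′ from the RefSeq WBcel235 genome. Capitals mark words used to describe the families. ACTTACCTG is the 5′ splice site complement of U1 RNA, and GTAGTA is the branch point recognition word of U2 RNA. AGCTTTGCG begins U4 RNA, and ATTTTTG resembles the site where Sm proteins bind.
sup-6, 165-base family, II:12944803-12944967, minus strand: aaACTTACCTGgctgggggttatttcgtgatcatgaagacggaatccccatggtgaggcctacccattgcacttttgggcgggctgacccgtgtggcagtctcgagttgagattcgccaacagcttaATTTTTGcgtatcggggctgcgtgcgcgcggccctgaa
C52E4.8, 144-base family, V:11980118-11980261, plus strand: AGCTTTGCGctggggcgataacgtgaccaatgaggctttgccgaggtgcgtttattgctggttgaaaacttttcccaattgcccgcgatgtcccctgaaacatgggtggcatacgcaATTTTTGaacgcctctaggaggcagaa
F11A5.14, 187-base family, V:16225701-16225887, minus strand: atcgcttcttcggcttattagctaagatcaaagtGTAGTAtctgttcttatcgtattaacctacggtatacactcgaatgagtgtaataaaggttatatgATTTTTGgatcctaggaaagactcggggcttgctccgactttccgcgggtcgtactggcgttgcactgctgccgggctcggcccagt
smy-1, IV:9511763-9511839, minus strand: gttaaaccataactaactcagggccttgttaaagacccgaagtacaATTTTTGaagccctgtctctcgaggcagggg

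ACTTACCTG was present in 12 of 13 genes of the 165-base family. GTAGTA was present in 18 of 19 genes of the 187-base family. AGCTTTGCG was present in all 5 genes of the 144-base family. The 24 genes of the 102-base family and the 7 genes of the 105-base family held none of these words and no ATTTTTG.

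The authors deposited 4 lists of regions that were used here, each region with a summit and a signal value given by the authors' peak caller. The optimal list, thresholded on reproducibility between replicates by the irreproducible discovery rate (IDR), had 354 regions with a median signal of 115. The relaxed joint list, made from both replicates, had 12454 regions with a median signal of 34.7. The relaxed lists of the replicates had 19207 regions in replicate 1 and 18799 in replicate 2, with median signals of 19.5 and 17.0. Rank 1 is the highest signal of a list, and signals were compared within a list only, because their scale is not stated. A gene was counted as near a summit when the summit lay within 500 bp of the gene body. The relaxed lists hold weak regions by design, so they are read below against the share of other genes that meet the same rule.

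In the optimal list NPAX-4 regions were found at a share of snRNA genes near that of other genes, all at copies of a single sequence. In the optimal list, 3 of the 99 snRNA genes lay near a summit, which is 3.03% (95% Clopper-Pearson interval 0.629% to 8.60%, counting error only). The same held for 1.66% of the 46827 other genes and for 2.46% of the 31464 other genes that are not piRNA genes. Among 7832 other genes no longer than 187 bases, the longest member, and again without piRNA genes, the share was 4.53%. The count of 3 was thus near the background. The short-gene set, here and below, keeps the tRNA, snoRNA and sls- genes of that length. An optimal summit lay near 141 of 612 nuclear tRNA genes, 52 of 346 snoRNA genes and 5 of 30 sls- genes of any length. These classes can raise the short-gene shares, and the shares without them were not computed. All 3 genes, W05B2.8, C28A5.7 and F54D8.7, were members of the 102-base family, and all lay on chromosome III. They were 12.5% of the 24 genes of that family, with an interval from 2.66% to 32.4%. It includes the 4.53% of other short genes and lies above the 1.66% and 2.46%. The family was not tested. The other 96 members had no optimal summit within 500 bp, and the nearest such summit to any of them was 1438 bp from F08G2.9 of the 187-base family.

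The relaxed lists gave the same reading for the class as a whole. In the joint list 19 snRNA genes lay near a summit (19.2%, interval 12.0% to 28.3%), against 22.7% of other genes, 30.3% of other genes without piRNA genes and 24.7% of the other short genes. In replicate 1 the count was 29 snRNA genes, or 29.3%, against 31% of other genes, 40.3% without piRNA genes and 29.5% of the other short genes. In replicate 2 it was 30 snRNA genes, or 30.3%, against 30.9% of other genes, 40.2% without piRNA genes and 30.9% of the other short genes. Both replicates had a summit at 17 of the 99, or 17.2%, against 17.4% of other genes, 24.5% without piRNA genes and 15.7% of the other short genes. No list held a higher share of snRNA genes than of other genes without piRNA genes, except the optimal list. In all, 56 of the 99 had no summit in any list, 12 had one in replicate 1 but not in replicate 2, and 13 the reverse.

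The tRNA and snoRNA genes were near summits more often than the snRNA genes in these lists, by description, and the miRNA genes were not near optimal summits more often. In the optimal list the count was 3 of 99 snRNA genes, against 141 of 612 nuclear tRNA genes, 52 of 346 snoRNA genes, 5 of 30 sls- genes and 4 of 261 miRNA genes, the last being 1.53%. In the joint list it was 19.2% of snRNA genes, against 57.7% of tRNA, 36.1% of snoRNA, 26.7% of sls- and 20.7% of miRNA genes. The snRNA interval in the optimal list lay wholly below those of the tRNA and snoRNA genes and overlapped that of the sls- genes, which ran from 5.64% to 34.7%. Genes of a class can share a summit, so these shares do not come from independent genes, and the differences were not tested.

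**Figure D1:**
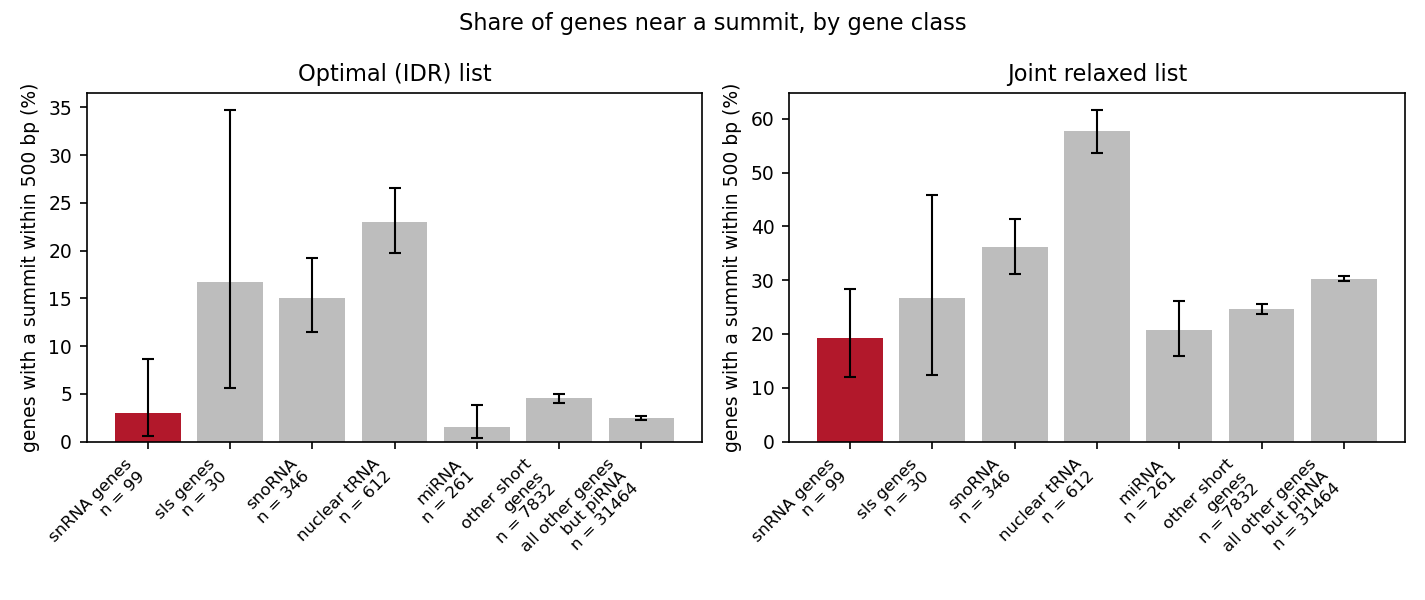
Percent of genes of each class with a summit within 500 bp of the gene body in the optimal list (left) and the joint list (right), with bars from 0 and 95% Clopper-Pearson intervals that cover counting error only. The snRNA genes, in red, reach 3.03% and 19.2%, against 23.0% and 57.7% of nuclear tRNA genes.

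W05B2.8 had the strongest region of any snRNA gene. It lies in an intron of dhc-4, a dynein heavy chain gene, on the same strand. Its best region had a signal of 201 at rank 50 in the joint list, the same region as in the optimal list. The signal was 102 at rank 51 in replicate 1 and 103 at rank 52 in replicate 2. The 3 summits lay 120, 82 and 119 bp from the 5′ end of the 102-base gene, within it in replicate 1 and at most 19 bp past its 3′ end in the joint list. A second region followed in each list. In the joint list its summit lay 321 bp from the 5′ end, with a signal of 100 at rank 227. That second region stood at rank 219 in replicate 1, with its summit at 309 bp, and at rank 187 in replicate 2, at 321 bp. Among protein-coding 5′ ends the closest belonged to the collagen gene col-94, and the best joint summit lay 1926 bp upstream of it.

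C28A5.7, at III:4426854-4426955 on the minus strand, lies in an intron of C28A5.6 on the same strand. Its joint region had a signal of 114 at rank 179, with the summit 43 bp from the gene's 5′ end and so inside the gene. The signal was 70.7 at rank 120 in replicate 1 and 43.4 at rank 296 in replicate 2, with summits 44 and 60 bp from the 5′ end. An ncRNA gene annotated on the opposite strand, C28A5.9, also covered the summit.

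F54D8.7, at III:5080798-5080898 on the minus strand, lies in no protein-coding gene. Its joint region had a signal of 96.3 at rank 247 with the summit 23 bp from the 5′ end. The signal was 48.6 at rank 265 in replicate 1, 105 bp from the 5′ end, and 50.9 at rank 216 in replicate 2, 11 bp upstream of it. The joint summit lay 849 bp upstream of cox-6A, a cytochrome c oxidase subunit gene and the closest by its 5′ end.

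These 3 genes were also the members near one of the 354 highest-signal regions in both replicates, which was 3.03% of members against 1.22% of other genes, 1.81% without piRNA genes and 3.52% of the other short genes. The optimal list was made from the same replicates, so this is no separate support. None of the 4 optimal regions at these genes lay within 500 bp of a tRNA, snoRNA, sls- or miRNA gene. Their median signal, taking the best region of each, was 114 in the optimal list, against 122 at other genes with an optimal summit.

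Just outside the optimal list stood another copy of the sequence on the same chromosome. R07E5.16, at III:4414185-4414286 in an intron of mpc-1, a mitochondrial pyruvate carrier gene, had a joint signal of 73.6 at rank 374. The lowest signal in the optimal list was 76.4. In the replicates its best regions had ranks 399 and 602, with summits 73 bp from the 5′ end in replicate 1 and 50 bp upstream of it in replicate 2. The next member was sup-6 of the 165-base family, a locus named for its suppressor mutations, in an intron of F58G1.7. Its joint signal was 66.5 at rank 451, at ranks 703 and 927 in the replicates, and the joint summit lay 242 bp from the 5′ end, past the gene's 3′ end. These 5 genes were the members with a joint rank of 1000 or better. The share of other genes at that rank is not given here, so the count is not read as high or low.

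**Figure D2:**
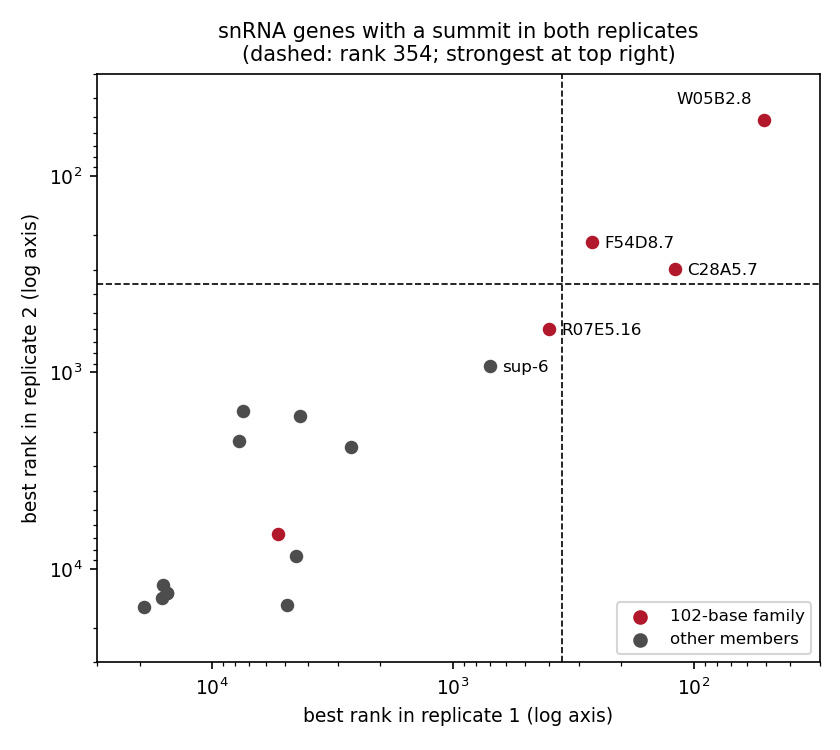
Best rank by signal in replicate 1 (x axis) and replicate 2 (y axis) of the 17 snRNA genes with a summit within 500 bp in both lists, on log axes with the strongest at the top right. T27E4.12 and T27E4.22 overlap and share a point. Dashed lines mark rank 354, and W05B2.8, C28A5.7 and F54D8.7 alone lie past both.

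Over those 17 genes the best signals in the replicates had a Spearman rho of 0.853, given as a description, since the genes share both libraries and some share a summit or a sequence. The best summits of the replicates lay a median of 114 bp and at most 358 bp apart, and 5 of the 17 pairs were within 50 bp. Of the 19 members in the joint list, 13 had a summit in both replicates, 5 in only 1 replicate and 1, F08H9.11 of the 165-base family, in neither. That gene also had the summit nearest the distance limit, 493 bp upstream of its 5′ end.

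The 102-base family held the 4 strongest of the 19 joint-list members and also T08B6.62, one of the weakest. Of its 24 genes, 6 lay near a joint summit, a share close to the 24.7% of other short genes, with ranks between 50 and 9077 and a median rank of 310.5. After the 4 on chromosome III came Y9C9A.111 on chromosome IV, with a joint signal of 44.8 at rank 1970. Its ranks were 5302 and 6685 in the replicates. T08B6.62 on the same chromosome had a joint signal of 31.4 at rank 9077 and no summit in replicate 2. The remaining 18 had no joint summit, and 14 of the 24 had no summit in any list. The 6 copies of the K09B11 cluster, in mam-3 on chromosome IV, had none in the joint list and none in replicate 1. In replicate 2 a single summit at rank 3517 lay near 2 of them. Of the 7 members on chromosome III, all of which belong to this family, 4 had a joint summit.

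**Figure D3:**
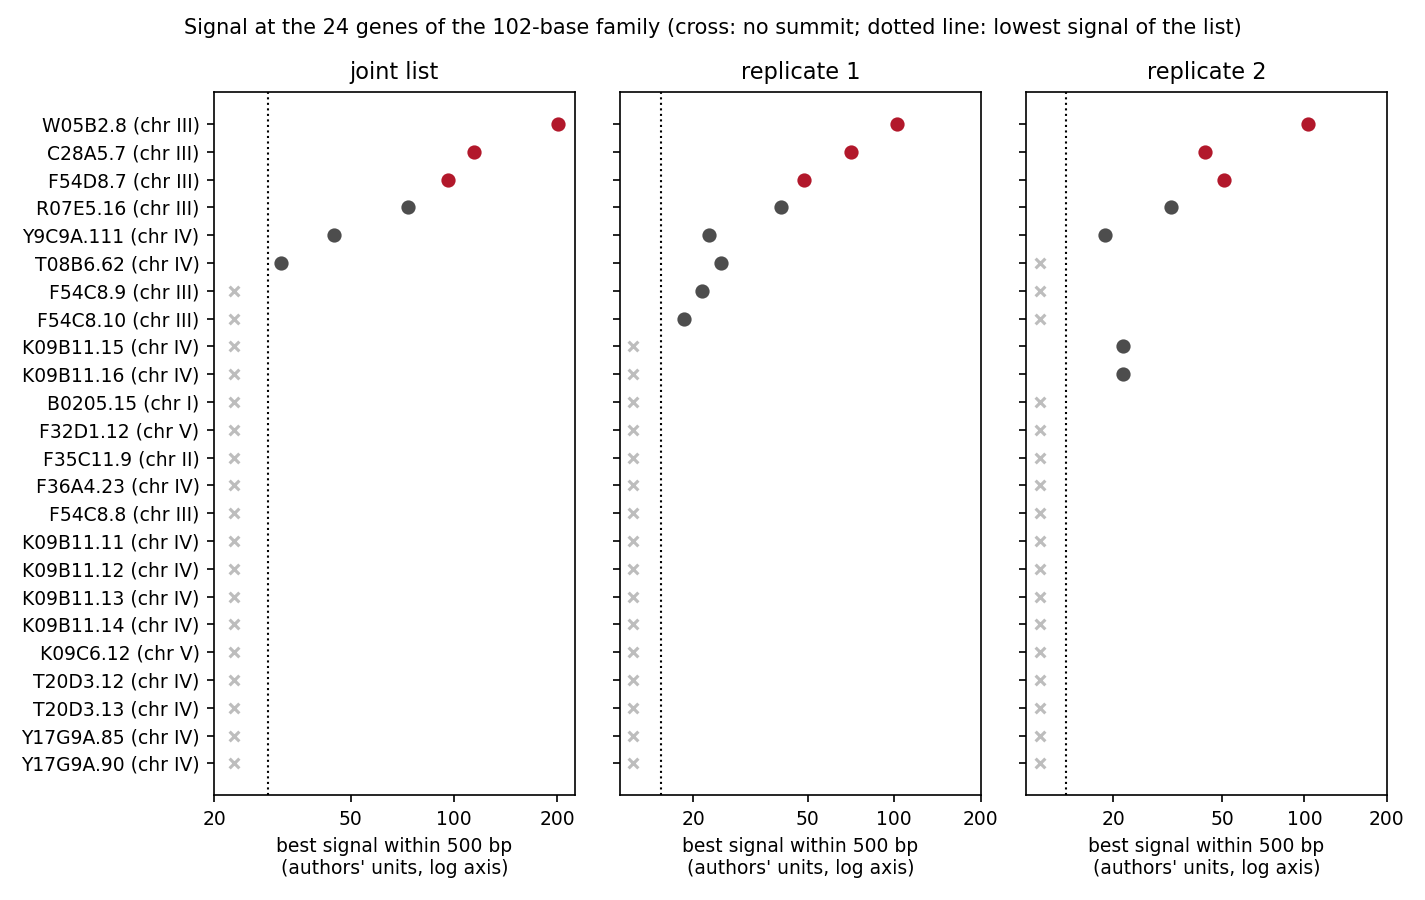
Best signal within 500 bp at each of the 24 genes of the 102-base family in the joint list and in each replicate (log axes, authors' signal, compared within a panel only). Red points are the genes with an optimal summit, crosses are genes without a summit, and the dotted line is the lowest signal of the list. W05B2.8 is highest in all 3 panels, and 18 genes have a cross in the joint list.

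The sequence of W05B2.8 was found 17 times in the genome, at 14 members annotated with 102 bases and at 3 annotated 1 base shorter, of which F54D8.7 and T08B6.62 are examples. Reads from inside these genes could not have been placed uniquely: none of the words of 36 bases within the gene bodies of these copies occurred once in the genome. With 250 bp of flank on each side, the share of words of 36 bases that occur once was 87.3% at W05B2.8, 70.9% at C28A5.7, 86.6% at F54D8.7 and 82.2% at R07E5.16. It was 84.1% at Y17G9A.85 and 85.0% at Y17G9A.90, identical copies with no summit in any list, 75.1% at K09C6.12, also without one, and between 52.4% and 65.1% in the K09B11 cluster. How the authors treated reads with several placements is not given in the sources used here, and the part of this in the signal was not tested. Among all members, 34 had an identical copy elsewhere and 65 did not. Joint summits were near 9 of the 34 and 10 of the 65, and all 3 members with an optimal summit were among the 34.

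Since their gene bodies were the same, the 17 copies were compared over the 90 bases upstream of the 5′ end. They are printed for the 4 copies with the strongest regions, for K09C6.12, Y9C9A.111 and one copy of the K09B11 cluster. The capitals mark TATATAA and GTCTGC. These 2 words, and the copies shown after the first 4, were picked after their sequences and signals had been seen.
W05B2.8, III:10989589-10989678, plus strand: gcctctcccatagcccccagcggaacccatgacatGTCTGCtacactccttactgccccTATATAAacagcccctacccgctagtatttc
C28A5.7, III:4426956-4427045, minus strand: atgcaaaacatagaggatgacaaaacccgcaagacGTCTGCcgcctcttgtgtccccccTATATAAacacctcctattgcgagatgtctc
F54D8.7, III:5080899-5080988, minus strand: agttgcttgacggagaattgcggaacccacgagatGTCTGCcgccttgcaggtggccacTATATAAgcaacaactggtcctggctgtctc
R07E5.16, III:4414095-4414184, plus strand: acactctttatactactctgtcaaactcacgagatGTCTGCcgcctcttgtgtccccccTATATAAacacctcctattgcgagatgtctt
K09C6.12, V:859001-859090, plus strand: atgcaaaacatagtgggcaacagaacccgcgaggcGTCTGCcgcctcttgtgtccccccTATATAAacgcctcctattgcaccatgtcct
Y9C9A.111, IV:4930864-4930953, plus strand: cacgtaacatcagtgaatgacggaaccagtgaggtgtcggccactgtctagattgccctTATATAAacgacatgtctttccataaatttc
K09B11.11, IV:13435887-13435976, minus strand: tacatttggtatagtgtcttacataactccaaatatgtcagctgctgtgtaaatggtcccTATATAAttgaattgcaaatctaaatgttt

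TATATAA began 31 bases upstream of the 5′ end in 8 of the 17 copies and 30 bases upstream in 6 others. All 6 copies with a joint summit were among the 8. GTCTGC began 55 bases upstream in 5 copies, with 18 bases between its end and the start of TATATAA in each. These 5 were the 4 copies with joint ranks 50, 179, 247 and 374, and K09C6.12, which had no summit in any list. The words were read off these genes, so their presence there is no test. K09C6.12 shared 77 of the 90 upstream bases with C28A5.7, more than R07E5.16 with 68, F54D8.7 with 54 or W05B2.8 with 44. Of the 12 copies without GTCTGC in this stretch, 2 had a joint summit, namely Y9C9A.111 and T08B6.62. The 7 other genes of the family, which differ from this sequence, had no GTCTGC there and no joint summit.

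In promoter windows of 250 bases upstream to 50 downstream of the 5′ end, read on both strands, TATATAA was present in 16 of the 24 genes of the 102-base family, in 23.2% of all members and in 8.08% of all annotated genes. GTCTGC was present in 5 of the 24, in 10 of the 19 genes of the 187-base family, in 18.2% of all members and in 6.43% of all annotated genes. It was also present in 16 of the 30 sls- genes left out here, in 14.2% of nuclear tRNA genes and in 9.58% of other short genes. The 187-base family had a joint summit at only 1 of its genes. TCACGC, a word that paired domains are known to bind, was present in 2 of the 99 member windows, or 2.02%, against 4.60% of all annotated genes, and in no window of the 102-base family. TATAAA was present in 31.3% of members and 37.4% of all genes, and GTTCGA, a word of the tRNA B box, in 12.1% of members and 10.3% of all genes. Within 75 bp of the best joint summit of the 19 members TATAAA was present in 15.8% of windows and TATATAA in 21.1%, and the other 3 words were in none. A match of letters describes the window and does not locate a binding site.

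The remaining families had no optimal summit, and their joint regions were weaker than those of the 4 copies on chromosome III. In the 122-base family 5 of 12 genes lay near a joint summit, or 41.7%, with an interval from 15.2% to 72.3% that includes the 22.7% of other genes and the 24.7% of other short genes. The same number, 5, had a summit in both replicates, and the interval includes the 17.4% and 15.7% of those genes. Its joint signals ran from 30.2 to 49.3. F38E11.10 led with a signal of 49.3 at rank 1242 and a summit 34 bp upstream of its 5′ end, at ranks 4299 and 1671 in the replicates. ZK897.3, in an intron of unc-31, stood at rank 3259 with the summit 421 bp from the 5′ end. F32B5.9 in cpz-1 stood at rank 4026 and F07C6.5 in pin-2 at rank 4294, the last without a summit in replicate 1. The weakest was Y69A2AR.36 in gfrl-1, at rank 10367. The identical copy of F38E11.10, F38E11.11, had no summit in any list.

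The 165-base family had joint summits at 3 of 13 genes. After sup-6 came sup-39, named like it for suppressor mutations, with a joint signal of 34.3 at rank 6539, no summit in replicate 1 and rank 4011 in replicate 2. The 22-base gene mir-1831, a microRNA by its symbol but annotated as snRNA, lies within sup-39, so both were scored on the same summit. In all, 3 pairs of members share bases. In the 187-base family, 1 of 19 genes had a joint summit. F11A5.14 had a signal of 42.4 at rank 2555 with the summit 92 bp from the 5′ end, and ranks 4488 and 8574 in the replicates. Of this family 13 genes had no summit in any list.

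In the 144-base family C52E4.8 was the only one of 5 with a joint summit, at a signal of 47.6 and rank 1488. Its summit, 57 bp upstream of the gene, also lay 338 bp upstream of the 5′ end of snr-4, which encodes an Sm protein. The region can thus not be assigned to one of the genes. In replicate 2 the best summit of C52E4.8 was also 57 bp upstream, at rank 2402. In replicate 1 its only summit was 262 bp downstream of the 5′ end, past the 3′ end, at rank 2647. Of the 10 smy genes, smy-1 had a joint signal of 49.1 at rank 1268 and smy-6 of 38.9 at rank 3852. The summits lay 357 and 400 bp from the 5′ end, past the 3′ ends of both genes. The smy-6 gene had no summit in replicate 1. At smy-1 the best summit lay at 185 bp and rank 7420 in replicate 1, and at 352 bp and rank 1569 in replicate 2. The region at smy-1 also lay within 500 bp of smy-2, annotated as a snoRNA gene, and it was the only one of the 21 joint regions at members near a tRNA, snoRNA, sls- or miRNA gene. The 7 genes of the 105-base family had no joint summit and 1 summit in replicate 2, at rank 14388.

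**Figure D4:**
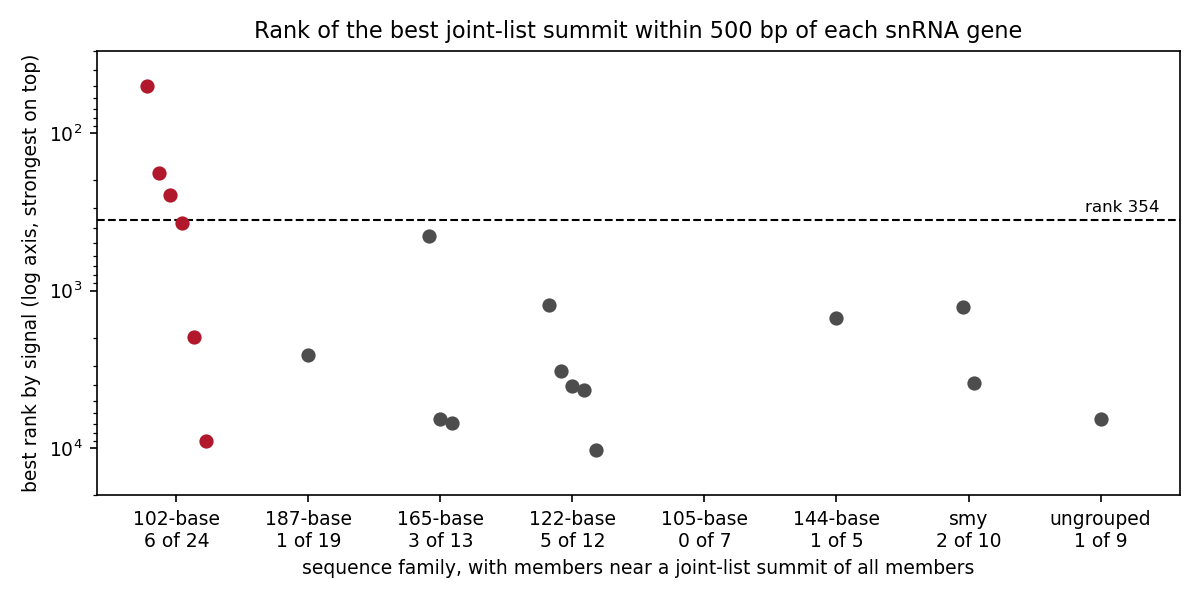
Rank by signal (log axis, strongest on top) of the best joint-list summit within 500 bp of each snRNA gene, by sequence family, with 1 point per gene and the number with a summit of all genes under each name. The dashed line marks rank 354. Only points of the 102-base family, in red, lie above it, and the best point of another family is sup-6 at rank 451.

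The joint regions at members had a higher median signal than those at other genes, and the replicate regions did not; the difference was not tested. The median best signal of the 19 members was 42.4, at a median rank of 2555, against 36.6 and a median rank of 5029 at 10611 other genes with a joint summit and 39.4 at other short genes. In replicate 1 the medians were 20.6 at 29 members and 20.7 at other genes. In replicate 2 they were 18.0 at 30 members and 18.1 at other genes.

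Summits lay on no fixed side of the snRNA genes. In the joint list the best summit was a median of 67 bp downstream of the 5′ end, with a range from 493 bp upstream to 421 bp downstream. It was upstream of the gene at 4 members, inside it at 7 and past its 3′ end at 8, and at 14 of the 19 it was within 100 bp of the gene, as it was at 22 of 29 in replicate 1 and at 15 of 30 in replicate 2. The medians were 60 bp in replicate 1 and 63.5 bp in replicate 2. In the 102-base family all 6 joint summits were within 100 bp of the gene, between 84 bp upstream and 120 bp downstream of the 5′ end. As the authors' regions were 450 bp long at all these genes and the genes at most 187 bp, a summit upstream of a gene and one within it are not well separated.

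**Figure D5:**
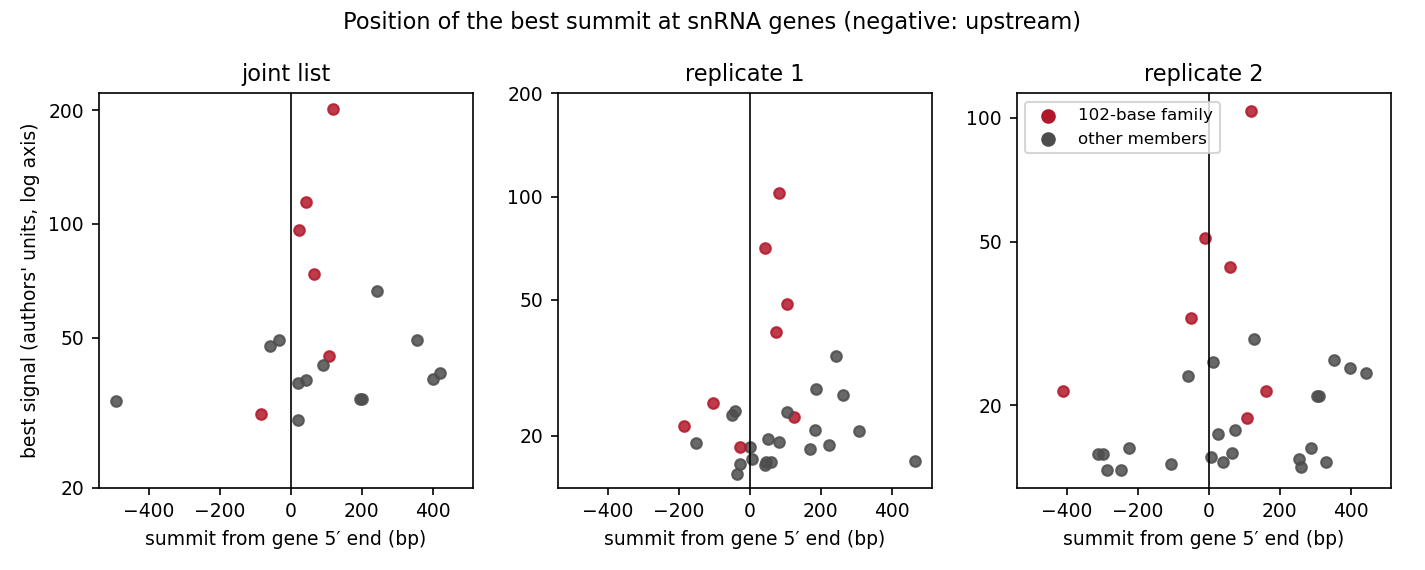
Distance of the best summit from the gene's 5′ end along its strand (x axis, bp, negative upstream) against its signal (y axis, log, authors' units, each panel with its own scale) for members in the joint list and in each replicate. Red points are the 102-base family. The strongest joint summits lie between 23 and 120 bp from the 5′ end, and weaker ones spread over the whole window.

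Most members with a joint summit lay inside protein-coding genes. Of all members 56 lay in a protein-coding gene, 48 of them wholly in introns. Of the 19 with a joint summit 14 were in a host gene, all of them in introns, and of the 3 with an optimal summit 2 were. By chromosome, joint summits were found at 1 of 12 members on I, 3 of 13 on II, 4 of 7 on III, 7 of 36 on IV, 4 of 28 on V and 0 of 3 on X. The shares of other genes near a joint summit on each chromosome were not computed. Members on III also all belong to a single sequence family. The counts are thus not read as a preference for a chromosome.

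Protein-coding genes from fixed lists on the making and use of snRNAs were scored by summits within 500 bp of the 5′ end. Of 21 genes for snRNA transcription and processing, such as SNAPc and Integrator subunits, none had an optimal summit, against 0.981% of all protein-coding genes, and 6 had a joint summit, which is 28.6%, against 15.8%. Of 26 genes for proteins of snRNA particles and related factors, 15 had a joint summit, or 57.7%. The shares were 50% in replicate 1 and 46.2% in replicate 2, against 21.5% and 21.7% of all protein-coding genes, and were not tested. In the optimal list 1 of the 26 had a summit. This was snr-1, an Sm protein gene, with a signal of 137 at rank 122 and the summit 441 bp upstream of its 5′ end, also within 500 bp of snx-13. In the replicates its signal was 90.1 at rank 71 and 45.6 at rank 271.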

How the data were processed

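ChIP-seq of NPAX-4 in late embryos was analysed from region lists deposited for 2 biological replicates. The relaxed list of each replicate was made from its alignments with a control, the joint list from the alignments of both, and the optimal list from these by IDR, per the deposited file descriptions. Not given in the sources used here are the aligner, peak caller and thresholds. The signal per region is the authors' value, of unstated scale. Lists on ce11 were used with the same assembly in Ensembl release 115 and RefSeq, and the ce10 lists were not used. Coordinates are 1-based.

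Summits were computed as the region start plus the deposited offset. Gene symbols came from RefSeq by WormBase ID for all 99 members, because 32 share their Ensembl name with another member. The members and lists were chosen with earlier results of these data known. The gene sequences of the 102-base and 122-base families are not reported here. Named members are those with an optimal summit and those with the 15 highest joint signals. Other members were named after their values were seen. Named protein-coding genes are hosts, nearest 5′ ends and those of a fixed list with an optimal summit, of which 6 symbols were not found.

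No test was run: there is 1 condition, and shares are descriptions with 95% Clopper-Pearson intervals that cover counting error only. No read counts were in these files, so sequencing depth is unknown. Summit scoring was checked on simulated data, where 0 of 40 planted summits were missed. This checks the code and not whether the deposited regions are correct. Python 3.11.15, numpy 2.4.6, scipy 1.17.1, Biopython 1.88 and matplotlib 3.10.9 were used. Alternatives changed the distance, the list cut, overlapping regions and identical copies. The short-gene background, the words TATATAA and GTCTGC and the share of unique words were added after seeing the data.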

Additional observations from a re-analysis of the deposited data

How the results depend on the processing

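The optimal summits were near the same 3 genes, C28A5.7, F54D8.7 and W05B2.8, at 250 bp, at 1000 bp and from the 5′ end. The same held with any base of the region counted and without summits near other small RNA genes. These settings left little room for another count. The best summits lay at most 120 bp from the 5′ ends, and the nearest optimal summit to any other member was 1438 bp away. None of the optimal regions at members lay near another small RNA gene. The 3 genes also stayed with overlapping regions reduced. They stayed in the 354 strongest regions of either replicate alone, so the count without a replicate was 3 in both cases. With identical annotated sequences counted once the count was 2, since F54D8.7 is annotated 1 base shorter than the other copies, and in the stronger 50% of the optimal list it was 1. Among the 1000 strongest regions the count of members was 5 in the joint list, 5 in replicate 1 and 5 in replicate 2. These were 5 genes in both replicates, with R07E5.16 and sup-6 added to the 3. At 1000 bp 28 members had a summit in both replicates, against 17 at 500 bp, since a wider window holds more summits. Shares of other genes among the 1000 strongest regions and at 1000 bp are not given here. These counts are thus not read as high or low. Under the other settings joint counts ran from 15 to 26, replicate 1 counts from 24 to 41 and replicate 2 counts from 23 to 45. The median summit position, 67 bp in the joint list, was 43 bp in the optimal list and between 60 and 63.5 bp without a replicate. Of 51 alternative values, 38 were counted as unmoved and 13 as moved. The unmoved include the counts at 1000 bp in the joint list and in each replicate, so the label does not mean an equal count. No paired analysis was possible because there is 1 group. Depth could not be assessed, so a gene with no region is not shown to be unbound.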
